A study of Mus musculus with 5 samples.

Results

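The genes of fatty acid oxidation and ketone synthesis were followed in mouse liver tumours that lacked the long non-coding RNA lnc-CTHCC. The set holds 33 genes of the 22287 in the deposited table, chosen by symbol for their place in the pathway, with earlier results of these data known. It covers the nuclear receptor PPARA with its coactivator, the proteins of fatty acid uptake and activation, the enzymes of mitochondrial and peroxisomal beta-oxidation, and enzymes that surround them. All 33 symbols were found, each with 1 identifier. The tested tumours came from lnc-CTHCC-/- mice (KO, 3 libraries) and were set against tumours of wild type mice (WT, 2 libraries). All mice were C57BL/6, and all were treated with the liver carcinogen DEN and the liver toxicant CCl4 for 5 months, so every library is from exposed, tumour-bearing liver. The sources used here do not give age, sex, the design of the deleted allele or the number of animals behind the libraries. Genotypes follow the labels, since the lnc-CTHCC transcript was not analysed here.

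Beta-oxidation shortens a fatty acid by repeated rounds of dehydrogenation, hydration, a second dehydrogenation and thiolytic cleavage, each round releasing acetyl-CoA and passing electrons to the respiratory chain. In the liver the carnitine palmitoyltransferases admit long-chain fatty acids to mitochondria, peroxisomes handle very long and branched chains, and during fasting much of the acetyl-CoA leaves the hepatocyte as ketone bodies. PPARA is activated by fatty acids and switches on many of these genes in rodent liver, where the peroxisomal enzymes are among its most responsive targets.

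Levels are in FPKM as computed by the authors, that is, sequenced fragments per kilobase of gene after scaling for library size. Their sum per library was 526229 to 552619. The smallest values of genes with a single annotated transcript fell on steps of about 1 fragment, from which a depth of about 24000000 fragments is implied for WT 1 and of 27800000 to 28600000 for the other 4 libraries. The hepatocyte origin of the tissue was clear from its markers: 7 of 7 hepatocyte markers in the table were expressed, with summed levels of 109600 to 110800 FPKM in KO and 98230 and 128200 FPKM in WT tumours, whereas the muscle markers summed to at most 0.13 FPKM. Alb, at 74739 (WT 2) to 94258 FPKM (WT 1), made up most of the hepatocyte sum. Markers of other cell types were detected as well. The cholangiocyte list, mostly Spp1, summed to 150 to 423 FPKM, and the stellate cell and fibroblast list to 80.6 to 143 FPKM. The B and plasma cell list ran from 38.5 FPKM in KO 3 to 491 FPKM in WT 2.

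No gene of the set passed the test in either direction. By limma on log2(FPKM + 1), with Benjamini-Hochberg adjustment over all 10132 genes tested, the smallest adjusted p of the set was 0.999, and the share called among all genes tested was 0.00987%. At an unadjusted p under 0.05 the set again gave 0 genes, where 3.23% of the genes tested lay under that limit. The log2 difference (KO minus WT) was above 0 for 23 genes and below 0 for 10, or above 0 for 69.7% of the set, where 61.4% of all genes tested were above 0 and 38.6% below. After median-ratio rescaling of the libraries the split was 17 above and 16 below. The median log2 difference was 0.06 for the set and 0.05 for all genes tested. Without WT 1 the set's median was -0.10, with 11 genes above 0, and that of all genes tested -0.07. Without WT 2 it was 0.23, where all genes tested had 0.16, and without KO 3 it was -0.02, with 15 genes above 0, where all genes tested had 0.08. In bulk tumour tissue, fewer cells of a type and less RNA per cell cannot be told apart.

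The intervals show what size of difference these libraries leave room for. For 29 of the 33 genes the 95% interval of the log2 difference, unadjusted for the number of genes, lay within 1 unit of 0. That count holds for the log2(FPKM + 1) scale, which understates differences of FPKM in low genes such as Ppargc1a and Acot1. For Ppargc1a the log2 difference was -0.24 with a standard error of 0.24, and -0.38 with 0.42 at a pseudocount of 0.1. The 4 genes with wider intervals were Cd36, Ehhadh, Acot2 and Pdk4. All 33 intervals included 0. The ratio of the KO mean to the WT mean was between 0.8 and 1.2 for 27 genes, and in 27 genes WT 1 and WT 2 lay at least as far apart as the means of the genotypes.

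**Figure D1:**
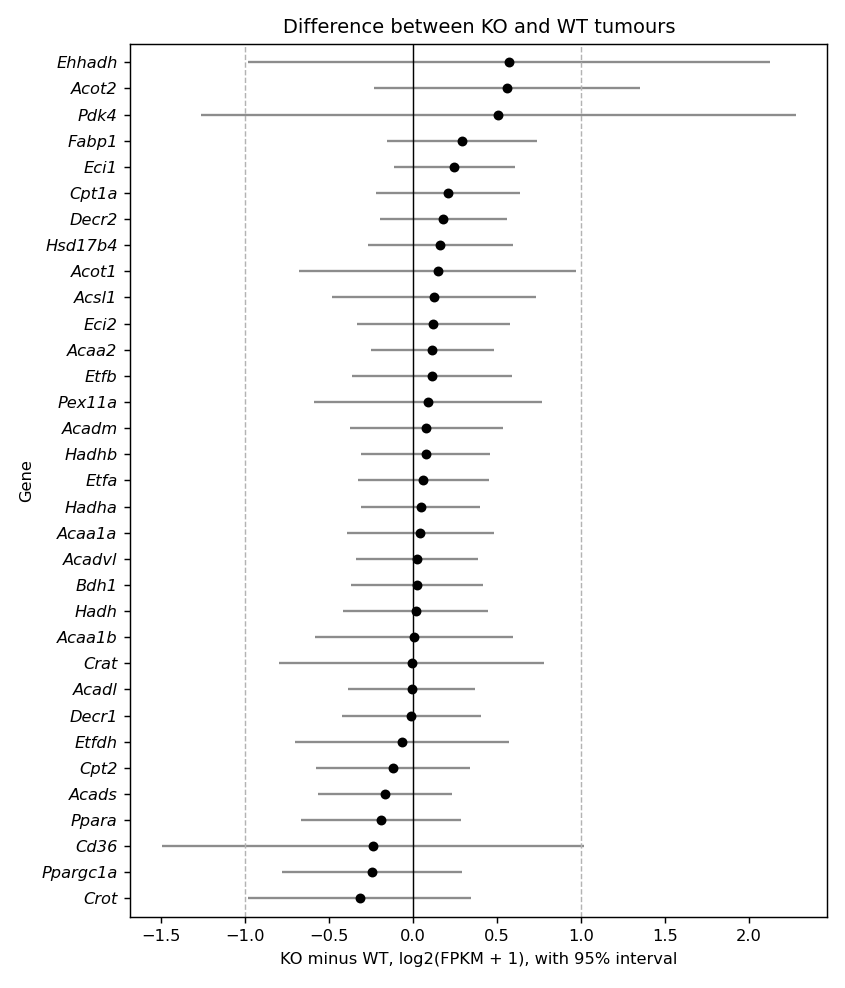
Difference between KO and WT tumours for each of the 33 genes, as points on the log2(FPKM + 1) scale with 95% intervals from limma (3 KO and 2 WT libraries), ordered by size; dashed lines mark 1 unit on either side of 0. Every interval includes 0, and those of Pdk4, Ehhadh and Cd36 are the widest.

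The receptor and its coactivator came first in the order of the pathway. Ppara, the fatty acid sensor itself, was at 18.1, 19.2 and 21.9 FPKM in KO tumours, against 18.3 and 27.7 FPKM in WT tumours. The KO values lay between or just under the WT values, and the log2 difference was -0.19 (95% interval -0.67 to 0.29). Ppargc1a, the PGC-1alpha coactivator of mitochondrial genes, was the least abundant gene of the set, at 0.93, 0.83 and 0.88 FPKM in KO and 0.71 and 1.90 FPKM in WT tumours. Its 3 KO libraries were close together while WT 2 stood at 2.68 times WT 1, and it reached the expression limit of a mean of 1 FPKM through WT 2.

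Uptake and activation of fatty acids are covered by Fabp1, Cd36 and Acsl1. Fabp1, the cytosolic fatty acid binding protein of hepatocytes (plus strand of chromosome 6, 71199827 to 71205023), was the most abundant of the 33 genes. It was at 932, 1156 and 1254 FPKM in KO tumours, against 1003 and 811 FPKM in WT tumours, which is 1114 ± 165 FPKM (SD, n = 3) and 907 ± 136 FPKM (SD, n = 2). WT 1 lay above KO 1, so the genotypes overlapped, and the log2 difference of 0.29 (95% interval -0.15 to 0.74) did not pass (limma adjusted p = 0.999). It was 0.45 without WT 1 and 0.14 without WT 2. Its promoter is shown because it was the only one of the set with a match to a PPAR-type element, a direct repeat of the hexamer AGGTCA with a single base between and any base allowed at the fourth place of each hexamer. Of the 250 bases before the RefSeq start (GRCm38.p6, chr6:71199629-71199878, plus strand), the capitals mark that match, which begins 67 bases before the start and reads AGGNCANAGGNCA on the other strand.
Fabp1: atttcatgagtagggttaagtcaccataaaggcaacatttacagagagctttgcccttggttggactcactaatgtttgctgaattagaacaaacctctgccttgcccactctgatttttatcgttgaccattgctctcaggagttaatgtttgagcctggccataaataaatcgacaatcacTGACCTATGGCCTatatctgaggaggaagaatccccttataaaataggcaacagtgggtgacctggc

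Cd36, a fatty acid transporter of the plasma membrane that macrophages, endothelial cells and adipocytes express as well, was at 22.2, 16.7 and 22.9 FPKM in KO tumours, against 10.1 and 56.5 FPKM in WT tumours. Both the lowest and the highest value were WT values, with all 3 KO libraries between them. The log2 difference was -0.24 with all libraries, -1.42 without WT 1 (limma adjusted p = 0.0943) and 0.95 without WT 2. Summed endothelial markers, 8 of 8 expressed, were at 109, 68.4 and 80.4 FPKM in KO and 72.9 and 63.5 FPKM in WT tumours, and macrophage markers, 9 of 10 expressed, at 179, 102 and 181 FPKM in KO and 118 and 156 FPKM in WT tumours. Of 6 adipocyte markers, 4 were listed at 0 in every library, Adipoq and Plin1 among them, and 1, Fabp4, was expressed. Fabp4 was at 16.7, 18.6 and 13.6 FPKM in KO and 14.3 and 21.3 FPKM in WT tumours, nearly all of the summed adipocyte level. The part of other cell types in the level of Cd36 was not tested. Acsl1, which activates long-chain fatty acids to their CoA esters, was at 125, 122 and 197 FPKM in KO and 105 and 165 FPKM in WT tumours, with KO 3 the highest and WT 1 the lowest library.

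Entry into the mitochondrion runs through the carnitine acyltransferases. Cpt1a, the rate-limiting transferase of the outer membrane, was at 102, 120 and 121 FPKM in KO tumours, against 84.6 and 115 FPKM in WT tumours, a log2 difference of 0.21 (95% interval -0.22 to 0.64). KO 2 and KO 3 lay above both WT libraries and KO 1 between them. Cpt2, its partner on the inner membrane, was at 18.2, 19.2 and 24.1 FPKM in KO and 19.2 and 25.5 FPKM in WT tumours. Within a library the ratio of Cpt1a to Cpt2 was 5.62, 6.27 and 5.02 in KO and 4.40 and 4.50 in WT tumours, so every KO ratio was above both WT ratios, a comparison made after the values were seen and not tested. Among the gene-pair ratios computed, only this ratio kept the genotypes apart. They overlapped in the ratios of Hadhb to Hadha, Etfb to Etfa, Etfa to Etfdh, Acaa1b to Acaa1a and Acot2 to Acot1. They also overlapped in those of Ehhadh to Hsd17b4, Decr2 to Decr1, Eci2 to Eci1 and Acaa2 to Hadhb. For levels of single genes, the genotypes were apart in 15.1% of all genes tested, and no such share was computed for ratios. Crat, which moves acetyl groups onto carnitine, was at 8.65, 8.18 and 15.5 FPKM in KO and 6.97 and 15.3 FPKM in WT tumours. Crot, the octanoyltransferase that exports chain-shortened products of peroxisomes, was at 30.0, 21.7 and 47.3 FPKM in KO and 35.7 and 43.3 FPKM in WT tumours with a log2 difference of -0.32 (95% interval -0.98 to 0.35) that was -0.60 without KO 3, -0.18 without WT 2 and -0.06 without KO 2. Its KO libraries held both the lowest and the highest value.

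The promoter of Cpt1a is given as that of the entry enzyme, with 1 match to the AGGTCA hexamer in capitals, on the other strand and beginning 94 bases before the RefSeq start (GRCm38.p6, chr19:3323051-3323300, plus strand).
Cpt1a: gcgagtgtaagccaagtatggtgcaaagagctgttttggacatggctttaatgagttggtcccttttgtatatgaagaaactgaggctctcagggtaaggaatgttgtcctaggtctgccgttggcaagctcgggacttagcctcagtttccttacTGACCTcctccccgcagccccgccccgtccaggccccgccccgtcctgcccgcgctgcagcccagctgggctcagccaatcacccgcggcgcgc

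The acyl-CoA dehydrogenases, which take the first electrons from fatty acids of decreasing chain length, differed little. Acadvl, for very long chains, was at 62.5, 62.3 and 70.8 FPKM in KO and 62.1 and 65.7 FPKM in WT tumours. Acadl, for long chains, was at 65.1, 56.9 and 67.1 FPKM in KO and 67.6 and 59.1 FPKM in WT tumours. Their log2 differences were 0.03 and -0.01, each with a 95% interval inside -0.39 to 0.39. Acadm, for medium chains, was at 67.4, 65.2 and 74.9 FPKM in KO tumours, between the 53.6 and 79.4 FPKM of the WT tumours. Acads, for short chains, was at 39.9, 46.4 and 45.2 FPKM in KO and 54.6 and 44.2 FPKM in WT tumours, with a log2 difference of -0.17 that was -0.02 without WT 1, -0.10 without KO 1 and -0.31 without WT 2. In none of the 4 genes did the genotypes separate.

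The later steps of the spiral were as even. Hadha and Hadhb encode the alpha and beta subunits of the mitochondrial trifunctional protein, which hydrates, dehydrogenates and cleaves long-chain intermediates. Hadha was at 56.1, 55.6 and 57.5 FPKM in KO and 57.4 and 51.9 FPKM in WT tumours, the narrowest range of the 33 genes at 1.11 times between the highest and the lowest library. Hadhb was at 83.2, 71.7 and 90.9 FPKM in KO and 77.1 and 77.3 FPKM in WT tumours, and its ratio to Hadha ran from 1.29 to 1.58 over the 5 libraries. Of the 50-base stretches in Hadhb transcripts, 56.6% also occur in the processed pseudogene Gm13910, so its level carries the doubt of any reads that both could claim. These genes lie head to head on chromosome 5, Hadha on the minus strand (30118304 to 30155162) and Hadhb on the plus strand (30155248 to 30184593), with 85 bases between them in GENCODE M21. That stretch is printed because a single interval lies upstream of both subunits (GRCm38.p6, chr5:30155163-30155247, plus strand), with capitals on the 68 bases that fall within the 250 bases before both RefSeq starts.
Hadha and Hadhb: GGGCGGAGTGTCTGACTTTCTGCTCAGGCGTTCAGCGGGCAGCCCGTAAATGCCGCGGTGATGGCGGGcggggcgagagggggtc

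Hadh, the dehydrogenase of medium and short chains, was at 85.1, 89.1 and 103 FPKM in KO tumours, within the 78.2 and 106 FPKM of the WT tumours. Acaa2, the mitochondrial thiolase that ends each round, was the second most abundant gene of the set, at 289, 318 and 336 FPKM in KO and 302 and 277 FPKM in WT tumours (log2 difference 0.12, 95% interval -0.25 to 0.48), a difference of 0.18 without WT 1, 0.05 without WT 2 and 0.07 without KO 3. KO 2 and KO 3 lay above both WT libraries, and KO 1 between them.

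The auxiliary enzymes that remove double bonds held the single gene whose genotypes did not overlap. Eci1, the mitochondrial enoyl-CoA isomerase (plus strand of chromosome 17, 24426641 to 24439348), was at 31.8, 34.1 and 32.6 FPKM in KO tumours, against 27.3 and 27.7 FPKM in WT tumours. All 3 KO libraries were above both WT libraries, with means of 32.8 ± 1.16 FPKM (SD, n = 3) and 27.5 ± 0.283 FPKM (SD, n = 2), and a KO to WT ratio of 1.19. The log2 difference of 0.25 (95% interval -0.11 to 0.61) was not past the threshold (limma adjusted p = 0.999). Genotypes were likewise apart in 15.1% of all genes tested, with KO higher in 9.78% and KO lower in 5.29%, so 1 gene of 33 is below the background. Eci2, the isomerase shared by peroxisomes and mitochondria, was at 62.2, 50.03 and 64.6 FPKM in KO and 46.0 and 62.8 FPKM in WT tumours.

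The 2,4-dienoyl-CoA reductases overlapped between genotypes. Decr1, the mitochondrial form, was at 24.1, 23.7 and 28.7 FPKM in KO and 22.9 and 28.4 FPKM in WT tumours. Decr2, the peroxisomal form, was at 48.3, 57.1 and 57.7 FPKM in KO and 46.0 and 49.3 FPKM in WT tumours, with a log2 difference of 0.18 (95% interval -0.20 to 0.56). KO 2 and KO 3 were above both WT libraries for Decr2, and KO 1 fell between them.

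Electrons from the dehydrogenases pass through the electron transfer flavoprotein, of subunits Etfa and Etfb, to its oxidoreductase Etfdh. Etfa was at 81.1, 84.2 and 89.1 FPKM in KO and 72.1 and 91.1 FPKM in WT tumours. Etfb was at 187, 212 and 198 FPKM in KO and 230 and 147 FPKM in WT tumours, and Etfdh at 22.9, 20.7 and 31.2 FPKM in KO and 18.7 and 35.3 FPKM in WT tumours. Etfb ran opposite to its partners in the WT libraries: it was higher in WT 1 than in WT 2, whereas Etfa and Etfdh were lower. The ratio of Etfb to Etfa was 2.31, 2.52 and 2.23 in KO tumours, between the 3.19 of WT 1 and the 1.61 of WT 2. Etfb overlaps the annotated gene Gm45233 on the same strand, which holds 57.7% of its 50-base stretches, so its level is uncertain as far as reads were divided between them.

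Among the peroxisomal genes, Ehhadh varied most. Ehhadh, the bifunctional enzyme that hydrates and dehydrogenates peroxisomal acyl-CoA (chromosome 16, 21761287 to 21787807, minus strand), was at 32.6, 36.8 and 189 FPKM in KO tumours, against 26.7 and 62.5 FPKM in WT tumours. KO 3 was 3.03 times the next highest library, while KO 1 and KO 2 lay between the WT libraries. The log2 difference of 0.57 (95% interval -0.98 to 2.12, limma adjusted p = 0.999) was -0.23 without KO 3 and -0.03 without WT 1. Its promoter is shown as that of the most variable of these enzymes, with its 1 match to CCAAT, on the other strand, in capitals (GRCm38.p6, chr16:21787835-21788084, minus strand).
Ehhadh: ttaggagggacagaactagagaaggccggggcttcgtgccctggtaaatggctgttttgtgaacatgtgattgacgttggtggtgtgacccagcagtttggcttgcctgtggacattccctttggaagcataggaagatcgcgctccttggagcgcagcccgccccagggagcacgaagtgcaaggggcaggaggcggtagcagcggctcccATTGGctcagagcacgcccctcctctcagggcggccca

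Hsd17b4, the second bifunctional enzyme of peroxisomes, which also serves branched chains and bile acid precursors, was at 65.8, 58.2 and 71.2 FPKM in KO and 49.6 and 67.4 FPKM in WT tumours. Ehhadh stood at 0.495, 0.632 and 2.66 times Hsd17b4 in the KO libraries, against 0.538 and 0.927 times in the WT libraries. The peroxisomal thiolases are a pair of similar genes on chromosome 9. Acaa1a was at 28.1, 33.6 and 35.0 FPKM in KO and 26.8 and 35.9 FPKM in WT tumours, and Acaa1b at 77.3, 75.0 and 134 FPKM in KO and 100.4 and 83.5 FPKM in WT tumours. Acaa1b was again highest in KO 3, and lowest in KO 2. Since 35.5% of the 50-base stretches of Acaa1b also occur in Acaa1a, and 26.7% the other way round, both levels are uncertain as far as reads were divided between them. Pex11a, a membrane protein of peroxisome division, was at 13.6, 10.8 and 14.0 FPKM in KO tumours, within the 7.89 and 17.7 FPKM of the WT tumours.

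The thioesterases Acot1 and Acot2 release free fatty acids from CoA in the cytosol and in mitochondria, and both were low. Acot2 (plus strand of chromosome 12, 83987861 to 83993873) was at 1.54, 1.61 and 4.35 FPKM in KO tumours, against 0.78 and 1.79 FPKM in WT tumours, with KO 3 at 2.43 times the next highest library. It had the smallest unadjusted p of the set (0.142 by limma, adjusted p = 0.999), with a log2 difference of 0.56 (95% interval -0.23 to 1.35) that was 0.21 without KO 3. Acot1, 15616 bases further along the same strand, was at 2.10, 0.71 and 2.36 FPKM in KO and 0.66 and 2.34 FPKM in WT tumours. Of the 50-base stretches of Acot1 and Acot2, 23.5% and 24.5% occur in the other gene, so the division of reads between them is uncertain.

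Bdh1, which reduces acetoacetate to beta-hydroxybutyrate, was at 95.03, 119 and 116 FPKM in KO and 114 and 101 FPKM in WT tumours (log2 difference 0.02, 95% interval -0.37 to 0.42). Pdk4, the kinase that shuts pyruvate out of the citric acid cycle when fat is burned (chromosome 6, 5483351 to 5496309, minus strand), was at 2.24, 11.3 and 15.8 FPKM in KO tumours, against 1.69 and 13.1 FPKM in WT tumours. Each genotype had a library near 2 FPKM, KO 1 and WT 1, and the others were above 11 FPKM. Pdk4 had the widest range of the set, 9.34 times between libraries. Its log2 difference was 0.51 (95% interval -1.26 to 2.28), against 1.70 without WT 2, -0.68 without WT 1 and 0.04 without KO 3.

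**Figure D2:**
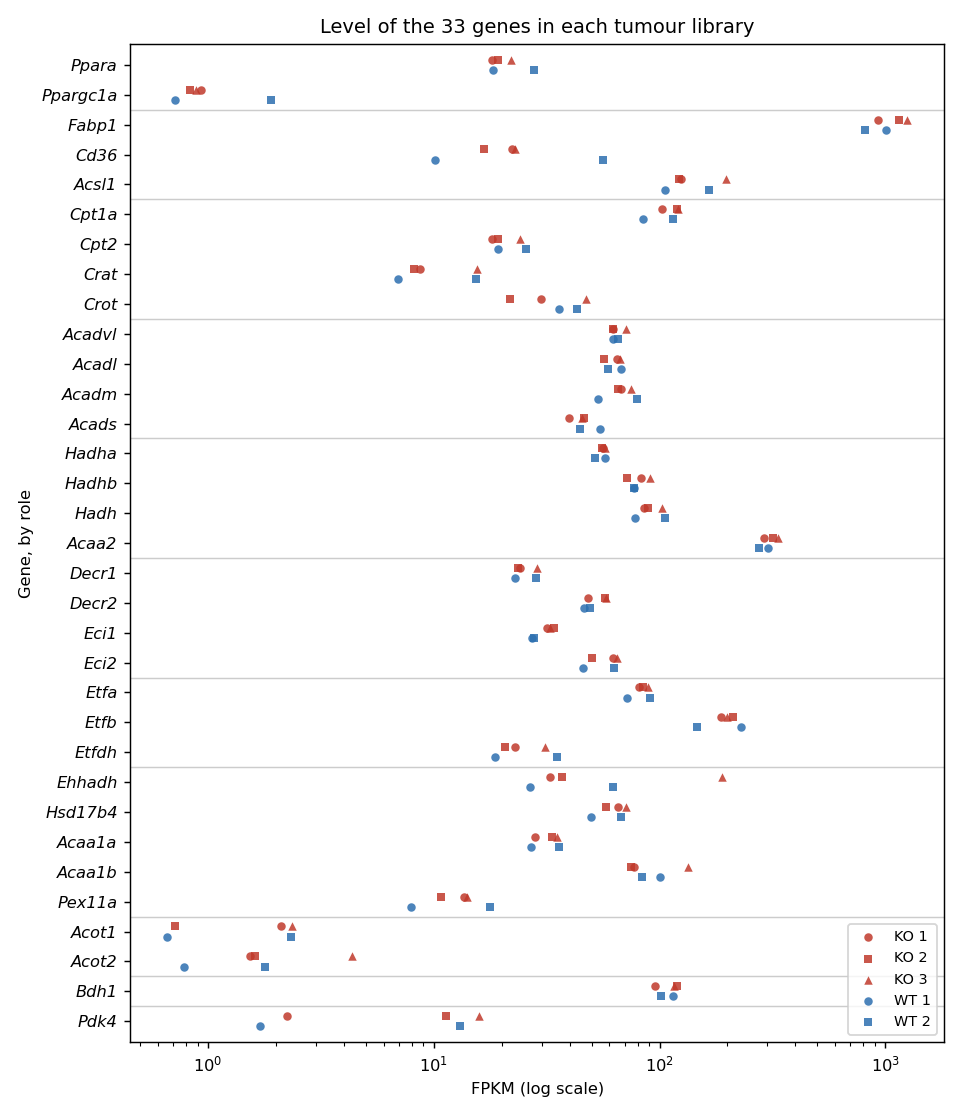
FPKM of each of the 33 genes in the 5 libraries on a log scale, grouped by role, with KO libraries in red above WT libraries in blue for each gene. Ppargc1a lies at the left edge and Fabp1 at the right, and the colours overlap in every row except that of Eci1.

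Levels spread more widely between genes than between libraries. Averaged over the 5 libraries, 18 of the genes were at 50 FPKM or more and 3, Ppargc1a, Acot1 and Acot2, were under 5 FPKM. The highest library was less than 1.5 times the lowest for 18 genes and more than 2 times for 9, or 27.3% of the set, where 20.9% of all genes tested exceeded 2 times. The 9 were Pdk4, Ehhadh, Cd36, Acot2, Acot1, Ppargc1a, Pex11a, Crat and Crot.

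Where libraries differed, KO 3 stood at the top of the set. It was above both KO 1 and KO 2 in 28 of the 33 genes, against 21.4% of all genes tested, and had the highest value of the 5 libraries in 18 genes (54.5%, against 8.89% of all genes tested). In these 18 genes KO 3 was from 1.001 times (Hadha) to 3.03 times (Ehhadh) the next highest library. The margin was also small, at most 1.028 times, for Cpt1a, Decr1, Acot1, Decr2, Crat and Eci2. No gene of the set was lowest in KO 3, and none was highest in KO 1, where 31.4% of all genes tested had their highest value. WT 1 had the lowest value in 21 genes, and it also held the lowest value in 46.4% of all genes tested. WT 2 was above WT 1 in 25 genes, or 75.8%, near the 72.3% of all genes tested. The 33 genes together took 0.529%, 0.572% and 0.684% of the FPKM sum in KO 1, KO 2 and KO 3, against 0.512% and 0.537% in WT 1 and WT 2. Without Fabp1 the shares were 0.351%, 0.357% and 0.448% in KO and 0.330% and 0.384% in WT tumours, so that WT 2 lay above KO 1 and KO 2. These counts describe 5 libraries and were not tested, and genes of a pathway are not independent of each other.

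**Figure D3:**
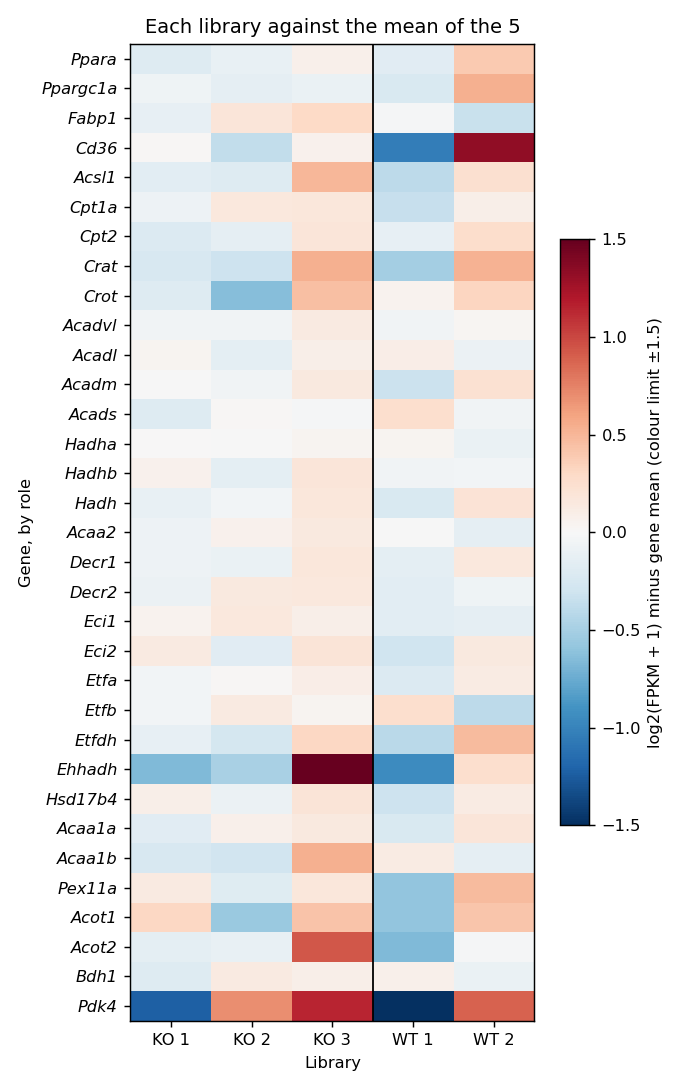
Each of the 33 genes in each library, as log2(FPKM + 1) minus the gene's mean over the 5 libraries, with red for above and blue for below that mean. KO 3 is red for most genes and WT 1 blue for most, and the strongest colours belong to Ehhadh, Pdk4 and Cd36.

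**Figure D4:**
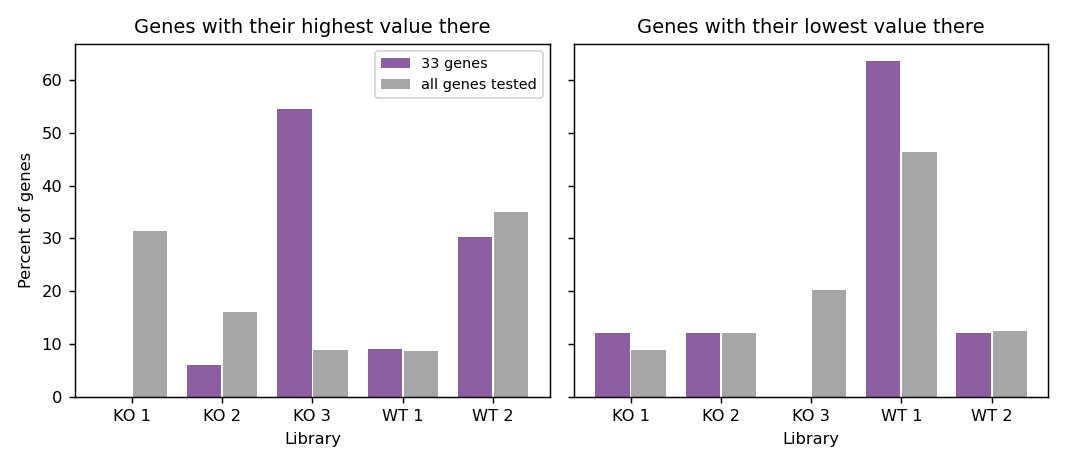
Percent of genes that had their highest value (left) or lowest value (right) in each library, for the 33 genes (purple) and for all 10132 genes tested (grey). KO 3 holds the highest value of 54.5% of the set and of 8.89% of all genes tested.

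The surrounding pathway was read from lists of other genes, none of them members of the set. In the lists of oxidation, peroxisomes, ketone bodies and PPARA, 116 of 127 genes were expressed enough to test, and 0 passed by limma in either direction, with 4 at an unadjusted p under 0.05, where 3.23% of all genes tested lay. Peroxisome biogenesis genes were above 0 in 5 and below 0 in 10 of 15 genes (median log2 difference -0.08), and PPARA partners and targets above 0 in 22 of 33 (median 0.13). The other lists had medians between -0.04 and 0.06, against 0.05 for all genes tested. Highest values in KO 3 were found in 8 of 21 other peroxisomal oxidation genes (38.1%), 4 of 16 fasting genes of gluconeogenesis (25.0%) and 8 of 33 PPARA partners and targets (24.2%). They were also found in 4 of 20 carnitine genes, 4 of 20 tested entries of the mitochondrial list (19 genes), 2 of 15 genes of peroxisome biogenesis (13.3%) and 1 of 8 ketone genes (12.5%), against 8.89% of all genes tested; these shares were not tested against each other.

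Slc25a20, the carnitine carrier between both transferases, was at 26.8, 26.5 and 35.3 FPKM in KO and 23.9 and 28.6 FPKM in WT tumours. Acat1, a mitochondrial thiolase of acetoacetyl-CoA, was at 40.5, 38.3 and 38.3 FPKM in KO and 41.0 and 33.6 FPKM in WT tumours. The genotypes overlapped in both genes.

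Among other peroxisomal genes, with names chosen after their values were seen, the thioesterase Acot3 was at 1.46, 1.43 and 9.55 FPKM in KO and 1.52 and 2.63 FPKM in WT tumours. Hacl1, a lyase of branched-chain breakdown chosen in the same way, was at 10.6, 13.6 and 34.7 FPKM in KO and 12.3 and 10.9 FPKM in WT tumours. In both genes KO 3 was the highest library, and KO 1 and KO 2 were nearer to both WT libraries than to KO 3.

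**Figure D5:**
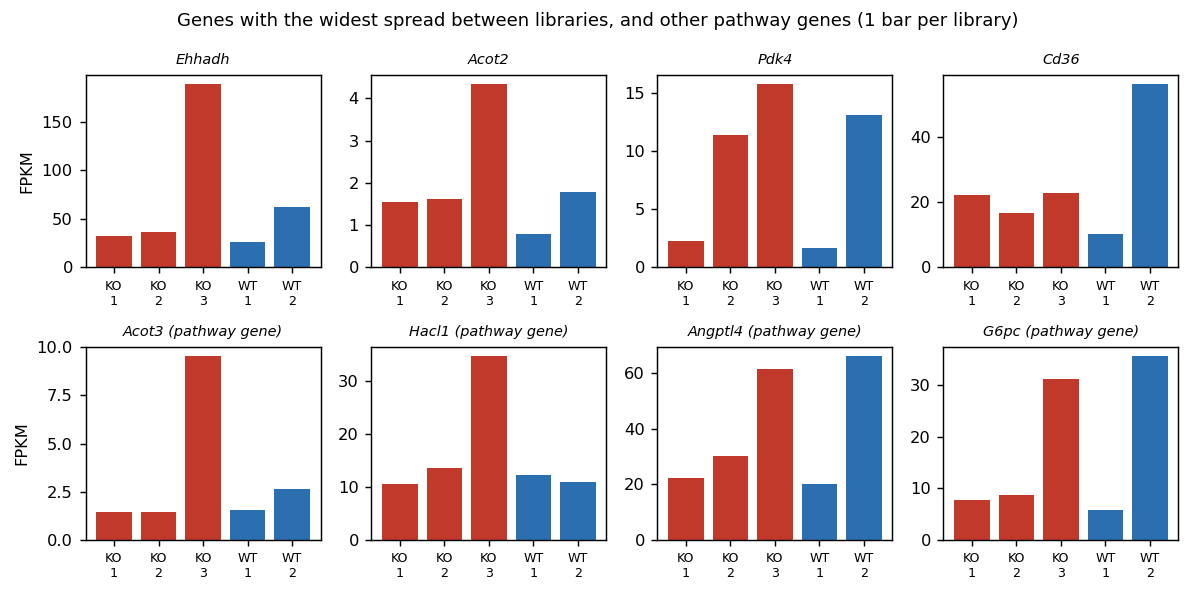
FPKM in each library, 1 bar per library with KO libraries in red and WT libraries in blue, for 4 of the 33 genes (top row) and for 4 other genes of the pathway (bottom row), chosen after their values were seen. KO 3 is the highest bar for Ehhadh, Acot2, Pdk4, Acot3 and Hacl1, and WT 2 for Cd36, Angptl4 and G6pc.

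Secreted and lipid-droplet targets of PPARA did not share a single order. Angptl4, an inhibitor of lipoprotein lipase, was at 22.3, 30.2 and 61.3 FPKM in KO and 20.1 and 66.1 FPKM in WT tumours. Fgf21, a fasting hormone, was at 3.32, 7.5 and 4.38 FPKM in KO and 11.0 and 1.65 FPKM in WT tumours, so WT 1, the lowest library for most of the set, was the highest here. Plin2, which coats lipid droplets, was at 303, 343 and 425 FPKM in KO and 320 and 274 FPKM in WT tumours. None of them separated the genotypes.

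Among list genes whose genotypes did not overlap, which the rule for naming them required, none passed the test. In the lists of oxidation, peroxisomes, ketone bodies and PPARA, KO was higher without overlap in 6 of 117 tested entries. KO was lower without overlap in 6. Of all genes tested, 9.78% were higher and 5.29% lower without overlap, or 15.1% in either direction. Acsl4, a synthetase with preference for arachidonic acid, was higher in KO at 39.9, 40.2 and 48.9 FPKM, against 23.2 and 32.0 FPKM in WT tumours (log2 difference 0.63, limma adjusted p = 0.999). Slc27a2, a fatty acid transporter and very long-chain synthetase, was at 267, 267 and 332.6 FPKM in KO and 236 and 251 FPKM in WT tumours. Pparg, the adipogenic relative of Ppara, was at 3.09, 4.03 and 3.45 FPKM in KO and 2.55 and 1.71 FPKM in WT tumours, and Hilpda, an inhibitor of lipid-droplet breakdown, at 7.05, 15.9 and 7.98 FPKM in KO and 5.41 and 4.80 FPKM in WT tumours. The log2 differences of Pparg and Hilpda were 0.54 and 0.81.

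Values lower in KO tumours were seen in Pecr, a peroxisomal reductase of chain elongation, at 20.5, 28.5 and 32.6 FPKM in KO and 35.9 and 47.9 FPKM in WT tumours (log2 difference -0.62, limma adjusted p = 0.999). Dbi, the acyl-CoA binding protein, was at 202, 241 and 230 FPKM in KO and 287 and 281 FPKM in WT tumours. Nudt19, a CoA hydrolase, Pex19, a chaperone of peroxisomal membrane proteins, and Pnpla2, the adipose triglyceride lipase, had log2 differences of -0.30, -0.17 and -0.16, and Pex26, a peroxisomal membrane anchor, had 0.11.

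Fasting genes of gluconeogenesis were read beside the set because PPARA and PGC-1alpha act in fasting. Of 16 genes, 8 were above 0 and 8 below, with a median log2 difference of -0.03, 0 past the threshold, against 0.00987% of all genes tested, and 2 at an unadjusted p under 0.05, against 3.23%. G6pc, the last enzyme of glucose release, was at 7.77, 8.69 and 31.1 FPKM in KO and 5.86 and 35.6 FPKM in WT tumours. Pck1, the committed enzyme, was at 91.3, 263 and 441 FPKM in KO and 312 and 466 FPKM in WT tumours. In both genes KO 3 and WT 2 were the highest libraries of their genotypes, as they were for Pdk4 and Angptl4. WT 2 was above WT 1 in 13 of the 16 genes, against 72.3% of all genes tested. KO 3 was above KO 1 and KO 2 in Pck1, G6pc, Fbp1, Igfbp1, Tat, Crtc2, Sds and Irs2, and in 21.4% of all genes tested. It was not above both in Pcx, Foxo1, Crebl2, Creb1, Got1, Gpt, Gpt2 and Insr. Igfbp1 of the same list was named after its values were seen. It ran the other way in the WT libraries, at 627 FPKM in WT 1 and 341 FPKM in WT 2. Its highest KO library was KO 3, at 817 FPKM, against 584 and 519 FPKM in KO 1 and KO 2. Sds, a serine dehydratase, was at 26.7, 54.0 and 56.2 FPKM in KO and 97.3 and 141 FPKM in WT tumours (log2 difference -1.41, limma adjusted p = 0.822), Irs2, an adaptor of the insulin receptor, had a log2 difference of 0.78, and Crebl2 had one of 0.26. The sources used here do not give the feeding state, and its part in these levels was not tested.

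Promoter letters were compared over the 250 bases before the start in RefSeq (GRCm38.p6), on both strands. Of the 33 genes, 29 matched the promoter table, with 31 starts, while Acaa2, Crat, Decr1 and Hsd17b4 did not. The full element AGGTCANAGGTCA was in 0 of the 31 windows and in 0.0335% of all 32851 promoters, and the open form AGGNCANAGGNCA in 1 window, that of Fabp1 shown above, and in 0.338% of all promoters. The hexamer AGGTCA, which also lies within the full element, was in 5 windows, those of Acadm, Cd36, Fabp1, Acadvl and Cpt1a, and in 14.0% of all promoters. CCAAT was in 15 windows and 33.8% of all promoters, and TATAAA in 1 window, again that of Fabp1, and 12.4% of all promoters. A match is a description of the letters, and elements outside these windows were not searched.

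The authors' deposited table also gives a p-value and a false discovery rate for each gene. Of the 33 genes, 0 have a rate or a p-value under 0.05 in the authors' deposited table. The smallest p-value in the authors' deposited table is that of Acot2 (0.0799, log2 fold change 0.96), and Ehhadh has a log2 fold change there of 0.95, also from the authors' deposited table. These values rest on the same 5 libraries.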

How the data were processed

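Trizol RNA from 3 KO and 2 WT tumours was made into Illumina libraries, per the labels' protocols. Tools listed without a role in the submitters' processing notes are HISAT2, StringTie, limma, DESeq2 and bcl2fastq 2.0, with the build mm10. Neither the annotation nor the strand setting is stated in the sources used here. The deposited values are FPKM per library, rounded to 2 decimals, with the authors' mean FPKM, log2 fold change, p-value and false discovery rate, per the file headers. FPKM values are not counts, so limma 3.58.1 (R 4.3.3, trend, two-sided, 3 residual degrees of freedom) was fitted to log2(FPKM + 1) over the 10132 genes with a mean of at least 1 FPKM, with Benjamini-Hochberg adjustment at 0.05; such fold changes understate low genes. On simulated data with independent noise in each gene, the procedure recovered 76.5% of 2-fold and 100% of 4-fold changes of FPKM + 1. In low genes these are larger changes of FPKM itself, so recovery of 2-fold and 4-fold changes of FPKM was not measured there. The simulation held no shifts of whole libraries, so behaviour under such shifts was not tested. Depth was estimated from steps in FPKM times transcript length, with 80.5% to 91.0% of the values used lying within 0.15 of a whole fragment. The step was chosen for its fit to these same values, which raises that share, so it is no separate check of the depth. Positions and transcripts come from GENCODE M21 (GRCm38, the assembly of mm10). No exact permutation test was used, since with 3 against 2 libraries its two-sided p is at least 0.1.

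The members, lists, tests and naming rules were chosen with earlier results of these data known. All 33 genes were named; of each list, up to 2 tested genes per direction with the smallest unadjusted p among those without overlap were named, and 10 genes whatever their values, of which some are not reported here. Nothing in the labels says that the libraries are from separate animals, so p-values may measure technical spread only. Alternatives were the pseudocount, the filter, rescaling, quantile normalization, the variance model, leaving out each library and a block for the replicate number. Figures used matplotlib 3.10.9.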

Additional observations from a re-analysis of the deposited data

How the results depend on the processing

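No gene of the set passed the threshold under any of the 15 alternatives tried, and the smallest adjusted p was 0.0943, for Cd36 without WT 1. The number of genes above 0 (23 of 33) was 15 with the replicate number as a block, and 11 to 26 with 1 library left out. The median log2 difference (0.06) was -0.10 to 0.23 with 1 library left out, while the median of all genes tested was -0.07 without WT 1 and 0.16 without WT 2. Same-numbered KO and WT libraries did not deviate together (r = 0.0884 and -0.241). With 2 WT libraries both values of r rest on the same WT difference, so they cannot settle whether the libraries were paired. Since KO 3 has no partner, the block leaves it without weight. The sign of a single gene turned in 21 of 327 results under other settings than leaving out a library. With rescaling to a common FPKM sum these were Crat, Acadl and Decr1 (0.02 each). With median-ratio rescaling they were Acadvl (-0.03), Hadha (-0.01), Hadh (-0.04), Acaa1a (-0.01), Acaa1b (-0.05) and Bdh1 (-0.04), and with quantile normalization Acadl (0.02), Hadh (-0.02), Decr1 (0.001) and Acaa1b (-0.009). With the block they were Acsl1 (-0.10), Acadvl (-0.03), Hadh (-0.06), Ehhadh (-0.23), Acaa1a (-0.02), Acaa1b (-0.26), Acot1 (-0.03) and Bdh1 (-0.02). The cause was not tested.

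With 1 library left out the sign turned in 39 of 164 results, and the log2 differences ranged from -0.47 to 0.10 for Ppara, -1.42 to 0.95 for Cd36, -0.19 to 0.45 for Acsl1, -0.008 to 0.43 for Cpt1a, -0.31 to 0.07 for Cpt2 and -0.52 to 0.51 for Crat. They ranged from -0.03 to 0.07 for Acadvl, -0.10 to 0.09 for Acadl, -0.20 to 0.36 for Acadm, -0.03 to 0.12 for Hadha, -0.20 to 0.23 for Hadh, -0.16 to 0.14 for Decr1 and -0.10 to 0.34 for Eci2. For the flavoprotein genes they were -0.10 to 0.23 (Etfa), -0.21 to 0.44 (Etfb) and -0.50 to 0.38 (Etfdh). The peroxisomal genes gave -0.23 to 1.17 (Ehhadh), -0.05 to 0.38 (Hsd17b4), -0.16 to 0.25 (Acaa1a), -0.26 to 0.15 (Acaa1b) and -0.44 to 0.63 (Pex11a), and Acot1, Bdh1 and Pdk4 gave -0.35 to 0.65, -0.06 to 0.13 and -0.68 to 1.70. The sign of 9 genes did not turn under any alternative in which they were tested, and with 1 library left out these gave -0.63 to -0.23 (Ppargc1a), 0.14 to 0.45 (Fabp1), -0.60 to -0.06 (Crot), -0.31 to -0.02 (Acads), 0.001 to 0.17 (Hadhb), 0.05 to 0.18 (Acaa2), 0.13 to 0.26 (Decr2), 0.22 to 0.27 (Eci1) and 0.21 to 0.88 (Acot2). With a pseudocount of 0.1 the order at the top was Acot2 (0.85), Pdk4 (0.63) and Ehhadh (0.58). Where 1 WT library remained, it was assumed to vary like the others, and the number of libraries limits the precision throughout.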
